A study of Arabidopsis thaliana with 3 samples.

Results

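The clade A protein phosphatases of type 2C (PP2C) are the phosphatases that hold abscisic acid signalling off in Arabidopsis thaliana. The 9 genes of this family, ABI1, ABI2, HAB1, HAB2, AHG1, AHG3 and HAI1 to HAI3, were examined for binding by FHY3 among 27444 protein-coding nuclear genes. The members were fixed by their locus identifiers, but the family was chosen with earlier results of these lists known. A peak was assigned to a gene when its interval overlapped the gene's span extended by 3 kb on each side. By this rule 3 of 1477 peaks in replicate 1 and 2 of 1361 in replicate 2 lay within 3 kb of a family gene.

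The peaks came from chromatin immunoprecipitation followed by sequencing (ChIP-seq) of inflorescences with flowers at stage 8 or younger, grown with 16 h of light and 8 h of dark. All 3 samples were labelled with the same plants, 35S:3FLAG-FHY3-3HA in the fhy3-4 mutant, in which the tagged protein is driven by the 35S promoter and not by FHY3's own promoter. The ChIP group had 2 samples, precipitated with an anti-FLAG antibody and described as biological replicates, and 1 sample was input DNA, which was not used here. No second genotype, hormone treatment or time was compared. Gene spans are those of TAIR10.1, and distances between peaks and genes assume that the lists, whose build is not named, share its frame. Peak lists carry no expression values, so the tissue could not be checked against marker genes.

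Abscisic acid is bound by receptors of the PYR/PYL family, and the receptor with its ligand then blocks clade A PP2Cs. Without the hormone these phosphatases keep SnRK2 kinases inactive, and on their inhibition the kinases phosphorylate bZIP transcription factors such as the ABFs. FHY3 is a transcription factor derived from a transposase and is best known from far-red light signalling downstream of phytochrome A.

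Of the 9 genes, 2 had a peak in each list, HAB2 and AHG3, and these were the genes where a peak lay on the gene itself. ABI1 had a low-scoring peak nearby in replicate 1 only, and the other 6 had none in either list. Across all protein-coding genes 5.45% had a peak of each list by the same rule, against 2 of 9 members (22.2%). When the peaks of the lists also had to overlap each other, the share of all genes was 5.33% and the members were the same. A peak of either list was found for 3 members and for 9.39% of all genes. For single lists the shares of all genes were 7.24% in replicate 1 and 7.6% in replicate 2, against 3 and 2 members. A peak of each list on the gene's own span was found for 1.93% of all genes and for the same 2 members. The family is small and was chosen with results of these lists known, so the counts describe these genes and were not tested.

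HAB2 (AT1G17550), which encodes a PP2C close to HAB1, had the highest-scoring peak of the family in both lists. In replicate 1 the peak ran on chromosome 1 from 6036628 to 6037790, was 1163 bp wide and had a score of 598.94 by the authors' peak caller. In replicate 2 it ran from 6036468 to 6037920, was 1453 bp wide and scored 1140.14. The score has no stated scale and depends on each library's depth, which is unknown, so it is read here by its rank within a list. The HAB2 peak ranked 48 of 1475 nuclear peaks in replicate 1 and 39 of 1354 in replicate 2. In replicate 1, 3.19% of peaks scored higher, and in replicate 2, 2.81%. The rank was thus near the top in both replicates.

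The HAB2 peak sat at the border of a pair of genes. HAB2 and its neighbour HLL (AT1G17560), which encodes a mitochondrial ribosomal protein needed for ovule development, are separated by 6 bp in the gene table. The peak covered 771 bp of HAB2 and 386 bp of HLL in replicate 1, and 931 bp and 516 bp in replicate 2. Its midpoint lay inside HAB2 in both lists, 189 bp and 204 bp from the end that faces HLL. Strand was not given in the gene table used here, so whether that end is the start of transcription was not determined. With an interval that spans both genes, the lists cannot assign the peak to one of them. The next neighbours, AT1G17545 on the far side of HAB2 and the myosin gene MYA1 beyond HLL, were 2719 bp and 1459 bp away from the replicate 1 peak.

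AHG3 (AT3G11410), also called PP2CA and known as a negative regulator of abscisic acid responses in germination, had the other peak found in both lists. The peak ran on chromosome 3 from 3582839 to 3583954 in replicate 1, with a width of 1116 bp and a score of 393.79. In replicate 2 it began at the same base and ended at 3584098, with a width of 1260 bp and a score of 537.01. It ranked 99 of 1475 in replicate 1 and 150 of 1354 in replicate 2, with 6.64% and 11.0% of peaks scoring higher. AHG3 thus ranked below HAB2 in each list, and unlike HAB2 it stood lower in replicate 2 than in replicate 1.

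The AHG3 peak lay mostly beside its gene and not on it. In replicate 1, 173 bp of the peak overlapped AHG3 and the midpoint was 385.5 bp outside the gene's low-coordinate end. In replicate 2 the overlap was 317 bp and the midpoint 313.5 bp outside. Of the peak, 15.5% and 25.2% fell within the gene, compared with 66.3% and 64.1% of the HAB2 peak within HAB2. The space between AHG3 and its neighbour on that side, AT3G11405, is 2422 bp. The peak left 1479 bp of it free in each list, so no other protein-coding gene lay under it. The HAB2 peak therefore overlapped 2 coding genes, and the AHG3 peak 1.

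**Figure D1:**
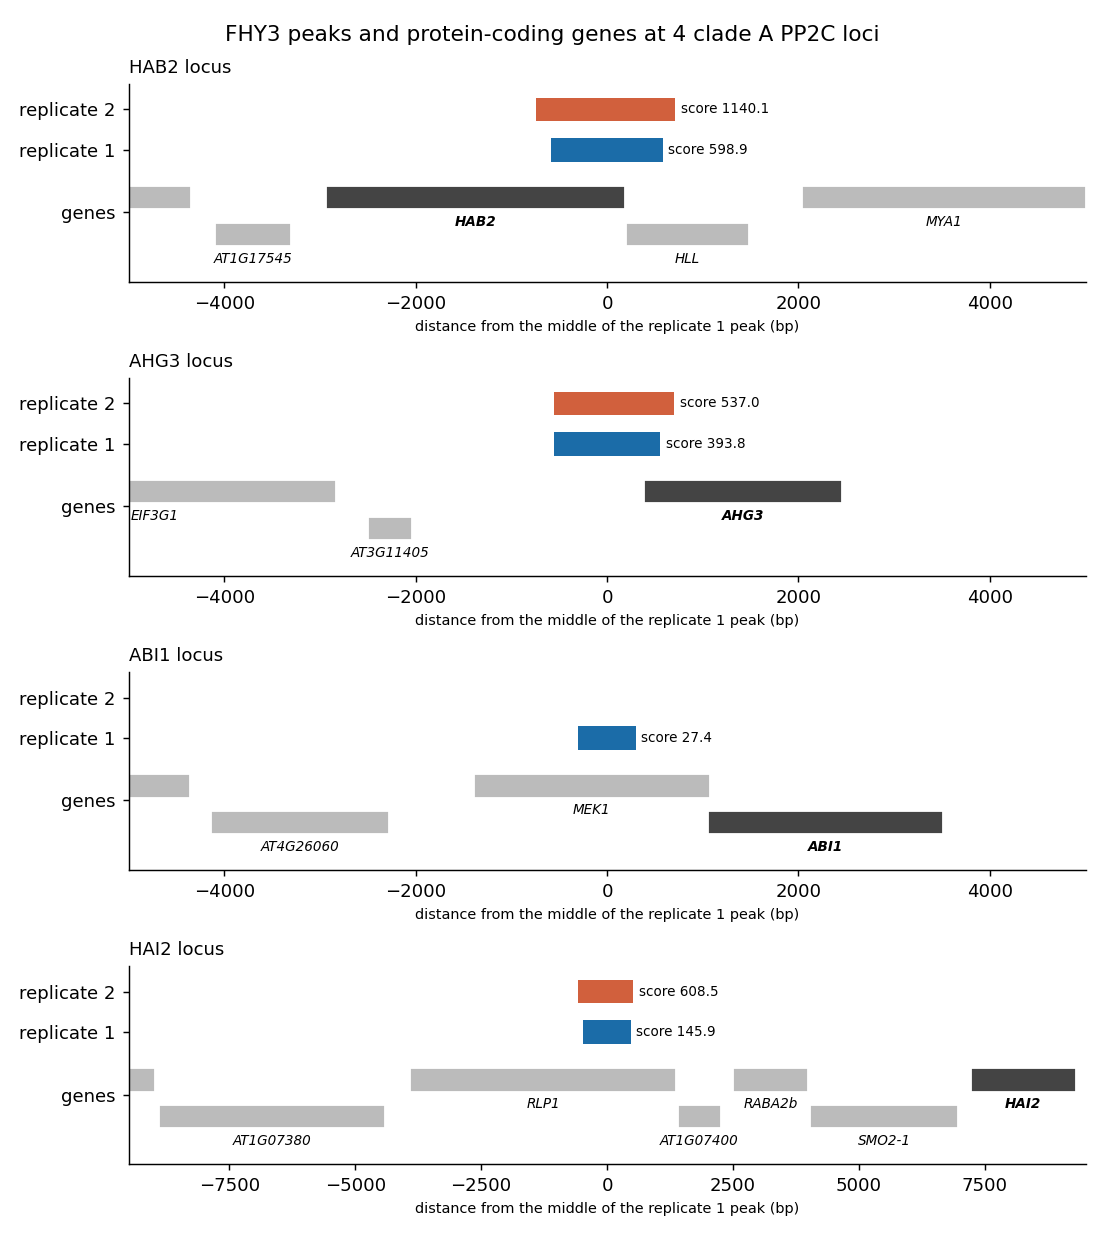
Peaks and protein-coding genes at the HAB2, AHG3, ABI1 and HAI2 loci, drawn in bp from the middle of the nearest replicate 1 peak. Blue and orange bars are the peaks of replicates 1 and 2 with their scores, dark bars the family member and grey bars its neighbours (those cut by the left edge to a short stub are not named), staggered in height only so that names can be read; the HAB2 peak straddles HAB2 and HLL, the AHG3 peak lies at one end of AHG3, the ABI1 peak lies within MEK1, and the HAI2 panel, on a wider scale, shows a peak of each list within RLP1 and none at HAI2.

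Both peaks were placed alike in the replicates. At HAB2 the whole replicate 1 peak was contained in that of replicate 2, which it covered to 80.0%, and the midpoints were 15 bp apart. At AHG3 the replicate 1 peak was likewise contained, covering 88.6% of the replicate 2 peak, with midpoints 72 bp apart. Over all 944 overlapping pairs of the lists the median distance of midpoints was 73.5 bp (middle 50% of pairs, 25.9 to 156 bp). The offset at AHG3 was close to that median, and the offset at HAB2 was below the middle range.

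The ABI1 peak differed in each of these respects. ABI1 (AT4G26080) is the phosphatase gene whose dominant mutation made plants insensitive to abscisic acid. Its peak was called in replicate 1, on chromosome 4 from 13218564 to 13219164, with a width of 601 bp and a score of 27.37, where the lowest nuclear score of the list is 23.03. It ranked 1210 of 1475, so that 82.0% of peaks scored higher. The peak ended 750 bp short of ABI1 and lay wholly within MEK1 (AT4G26070), a mitogen-activated protein kinase kinase gene whose span overlaps that of ABI1 by 22 bp. In replicate 2 the nearest peak was 51546 bp from ABI1. A peak of exactly one list within 3 kb was found for 3.94% of all genes. Because the lists hold peaks above the authors' threshold and no reads, the lack of a replicate 2 peak does not show a difference between the replicates.

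**Figure D2:**
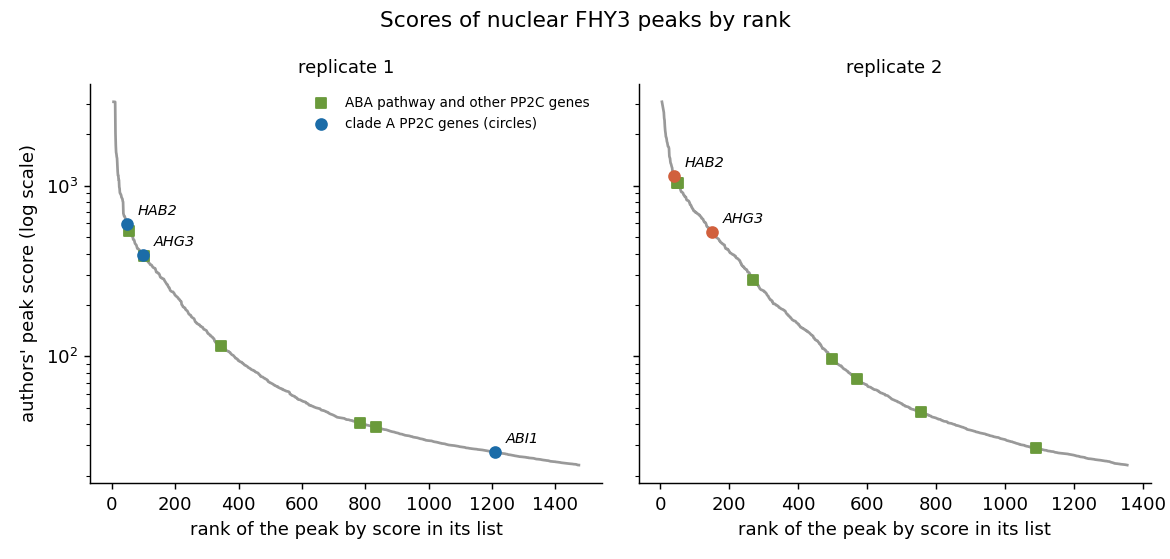
Authors' peak score on a log axis against rank by score for all nuclear peaks of replicate 1 (left, 1475) and replicate 2 (right, 1354), as grey lines. Circles mark clade A PP2C genes and green squares the peaks near the other listed genes; HAB2 and AHG3 lie on the steep upper part of both curves and ABI1 on the flat lower part in replicate 1.

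The 6 genes without a peak differed in how far the nearest peak lay. Over all genes the median gap to the nearest peak was 47180 bp in replicate 1 and 43462 bp in replicate 2. HAI2 (AT1G07430) was among the closer ones, with gaps of 6750 bp in replicate 1 and 6696 bp in replicate 2. That peak, with scores of 145.93 and 608.47, lay within RLP1 (AT1G07390), a receptor-like protein gene, with 3 further coding genes between it and HAI2. HAI1 (AT5G59220) was 13567 bp and 13542 bp from a peak at AT5G59270, with scores of 90.1 and 193.4. HAI1 and HAI2 belong, with HAI3, to the highly abscisic acid-induced PP2C genes, and none of these 3 had a peak within the rule. With 9.39% of all genes having a peak of either list, none of 3 is no sign of a difference from other genes.

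HAB1 (AT1G72770), the closest relative of HAB2, had no peak within 3 kb. In replicate 1 its nearest peak was 6582 bp away, at AT1G72740, and scored 23.61, close to the lowest score in the list. In replicate 2 the nearest was 89182 bp away, at the peptide receptor gene PEPR1. HAB1 and HAB2, related in sequence, thus differed in these lists, HAB2 with a peak among the top ranks, shared with HLL, and HAB1 with none. Only 9.39% of all genes had a peak of either list, so having none, as at HAB1, is the common state of a gene.

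In replicate 1 the genes farthest from a peak were ABI2, AHG1 and HAI3, and in replicate 2 they were AHG1, HAI3 and HAB1. For ABI2 (AT5G57050), the close relative of ABI1, the gap was 410759 bp in replicate 1 and 55771 bp in replicate 2. In replicate 1, 99.2% of all genes had a closer peak. AHG1 (AT5G51760), a phosphatase of seeds that most receptors do not inhibit, was 117034 bp and 117143 bp from a peak at AT5G51470. HAI3 (AT2G29380) was 93466 bp and 93290 bp from a peak at the glucosyltransferase gene UGT71D1. None of the 9 genes was in a gene-poor 500 kb bin of its chromosome.

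**Figure D3:**
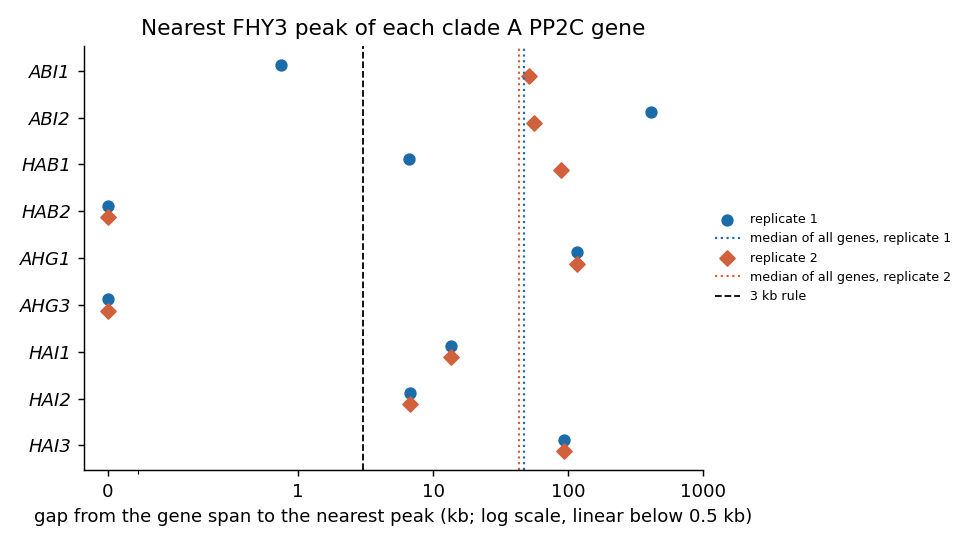
Gap in kb from each clade A PP2C gene to its nearest peak in replicate 1 (blue circles) and replicate 2 (orange diamonds), on an axis that is logarithmic above 0.5 kb. The dashed line is the 3 kb rule and the dotted lines the medians of all genes; HAB2 and AHG3 are at 0 in both lists, ABI1 is inside the rule in replicate 1 only, and the next outside it are HAB1 and HAI2 in replicate 1 and HAI2 and HAI1 in replicate 2.

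Widening the rule added genes in general at every step and members at some steps only. The members with a peak of each list were the same 2 with an extension of 0, 1, 3 or 5 kb, while the share of all genes rose from 1.93% to 3.18%, 5.45% and 7.77%. At 10 kb HAI2 was added, with 13.0% of all genes, and at 20 kb HAI1, with 22.4%. At 50 kb the count was still 4 of 9, with 45.0% of all genes, and at 100 kb it was 7, with 68.4%. Neither HAB2 nor AHG3 lay in a stretch crowded with peaks. Within 100 kb of its middle HAB2 had 2 peaks in each list and AHG3 1, whereas HAI2 had 5 in replicate 1 and 4 in replicate 2. The median of all genes was 1 in each list.

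The rest of the abscisic acid pathway was examined by the same rule with 5 lists holding 54 genes. Of these, 4 had a peak of each list (7.41%, against 5.45% of all genes), 1 each among 14 receptors, 10 SnRK2 kinases, 10 transcription factors and 15 genes of synthesis and breakdown. None of 5 transport genes had one. No pathway gene had a peak in a single list, against 3.94% of all genes. None of the 54 had a peak of each list on the gene's own span, against 1.93% of all genes. In a set of this size such counts are near the shares, so they are not read as a contrast with HAB2 and AHG3.

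Among the receptors the gene was PYL5 (AT5G05440), with a peak on chromosome 5 from 1607745 to 1608279 in replicate 1 and from 1607443 to 1608388 in replicate 2. The peak was 708 bp and 599 bp from the gene, scored 38.24 and 73.34, and had PYL5 as the nearest coding gene in both lists. It ranked in the middle of each list, 835.5 of 1475 and 569 of 1354. Among the kinases it was SnRK2.4 (AT1G10940), of a class of SnRK2 that responds to osmotic stress, with scores of 40.49 and 96.66. That peak was 554 bp and 401 bp from SnRK2.4, but its midpoint lay within the neighbouring TMN1. The kinases that act directly in abscisic acid signalling, SnRK2.2, SnRK2.3 and SnRK2.6, had none, like most genes (9.39% of all genes had a peak of either list).

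Among the transcription factors it was ABF4 (AT3G19290), a bZIP factor that binds abscisic acid response elements. Its peak ran on chromosome 3 from 6684841 to 6686209 in replicate 1 and from 6684687 to 6686398 in replicate 2, with scores of 115.17 and 278.42 and ranks of 343 and 269. The peak was 832 bp and 643 bp from ABF4. It lay between the coding genes ABF4 and FUT11 and in both lists overlapped AT3G03805, which is not among the protein-coding genes. Its midpoint lay so evenly between the coding genes that the nearer was FUT11 in replicate 1 and ABF4 in replicate 2. Among the synthesis genes it was NCED9 (AT1G78390), which cleaves the carotenoid precursor of the hormone. That peak ranked 55 and 51, near HAB2 in each list, with scores of 545.67 and 1034.95. It was 2702 bp and 2506 bp from NCED9, and its midpoint lay within the glutathione transferase gene GSTU19.

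Phosphatases of clades B, C and D, which share the PP2C fold but act outside the receptor complex, were taken as relatives for comparison. Of 19 such genes, 1 had a peak of each list (5.26%, against 5.45% of all genes). It was PLL5 (AT1G07630), a relative of the stem cell regulator POLTERGEIST. Its peak, with scores of 387.12 and 1037.34, was 1604 bp and 1635 bp from PLL5 and had its midpoint within the neighbouring ATOBGM. A further 2, AT3G55050 and AT4G38520, had a peak in replicate 2 only, with scores of 46.82 and 28.89 and midpoints in neighbouring genes. Across all genes 3.94% had a peak in a single list. The set is small and was not tested, so it is not read as a contrast with clade A. Of all 28 PP2C genes examined, HAB2 and AHG3 were the ones with a peak of each list whose nearest coding gene was the phosphatase gene itself. By that nearest-gene rule the share of all genes was 2.55%. The HAB2 peak also covered part of HLL and cannot be assigned to either gene alone.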

How the data were processed

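ChIP-seq peaks of 2 FHY3 replicates were analysed as deposited. The tools listed, per the submitters' processing notes, were CASAVA (version 1.8), Bowtie2 (2.2.3) and MACS (1.4.2); settings, control and build of the genome were not given in the sources used here. Each list was made by the authors for 1 replicate and holds start, end and a score of unstated scale, without reads, so depth and counting errors are unknown. A deeper library would give more and higher-scored peaks. Starts were converted to count from 1, and ranks were taken over nuclear peaks, ties sharing their mean rank. Gene spans came from a RefSeq table of TAIR10.1, matched by locus identifier for all 82 listed genes; every distance assumes that the lists share this frame. The table has no strand. Promoter motifs and protein sequences, planned, were not analysed here. Genes named are all members, every listed gene with a peak within 3 kb, and the genes at those peaks. Members and lists were chosen with earlier results of these data known. No test was run, since the series has 1 ChIP group. The window rule was tested on simulated data. Calculations used Python 3.11.15, numpy 2.4.6 and pandas 2.3.3, and plots matplotlib 3.10.9.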

Additional observations from a re-analysis of the deposited data

How the results depend on the processing

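HAB2 and AHG3 were the members with a peak of each list under every alternative tried with both lists and an extension of at most 5 kb: other extensions, a score of at least 100, the median score, midpoints, overlapping peaks, 50% reciprocal overlap and the nearest gene only. With 1 replicate left out the count was 2 to 3, ABI1 being added by replicate 1 alone. The extension of 10 kb, chosen after the data were seen, gave 3 members, against 13.0% of all genes. In replicate 1 alone it gave 5, HAB1 and HAI2 being added. The share of all genes for that list alone at 10 kb was not calculated. The added HAB1 peak scored 23.61, close to the lowest score in the list. The 73 other listed genes moved more: from 5 with a peak of each list to 0 at 0 bp, 3 at 1 kb, with a score of at least 100 or the median score, 12 at 10 kb and 1 by nearest gene (PYL5). With 1 replicate left out they numbered 5 to 7. Over all genes the share was 1.93% at 0 bp, 3.18% at 1 kb, 13.0% at 10 kb, 2.96% with a score of at least 100, 2.55% by nearest gene, and 7.24 to 7.6% with 1 replicate left out. By peak width HAB2 and AHG3 stood lower than by score, with 29.0% and 15.7% of peaks wider than that of HAB2 in replicates 1 and 2, and 32.9% and 25.04% for AHG3, while ABI1 stood higher, with 77.6%. Among peaks outside gene-poor bins, 3.83% and 3.20% scored above HAB2 in replicates 1 and 2, 9.69% and 15.6% above AHG3, and 85.5% above ABI1 in replicate 1. The cause was not tested. No paired analysis was possible because only 1 ChIP group exists. Without depth, a gene that lacks a peak cannot be called unbound.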

Other observations

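Other genes named for abscisic acid carried peaks outside the lists above. The gene table names abscisic acid or its short form ABA for 34 further protein-coding genes, a set formed after the data were seen and therefore not tested. Of these, 5 had a peak of each list within 3 kb (14.7%, against 5.45% of all genes). AT4G38480, also named ABD1 (ABA-hypersensitive DCAF 1), had the highest scores of the 5, 962.3 and 1698.65, with a peak on the gene on chromosome 4 from 18004681 to 18006017 in replicate 1. At AHG11 (AT2G44880), named for hypersensitive germination as AHG1 and AHG3 are, the peak touched the gene, with scores of 483.74 and 884.08, but its midpoint was nearest to AT2G44870. GUN5, the magnesium chelatase subunit also named ABAR, had scores of 75.92 and 143.96 at its shared peak. At TIL1, also named ABO4, and at FBH4, also named AKS3, the peaks were 868 bp and 924 bp from the gene in replicate 1 and nearest to another gene. The TIL1 peak scored 395.8 and 680.74. The FBH4 peak scored 29.43 and 29.83, near the lowest nuclear score of 23.03 in each list.

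HAI2 and HAI3, neither with a peak, each have a sterol methyl oxidase gene as neighbour, SMO2-1 at 243 bp and SMO2-2 at 157 bp. The peak nearest to HAI2, which lies within RLP1, differed between the lists in rank, 288 in replicate 1 and 129 in replicate 2. This was a larger step than at HAB2 or AHG3. The step was larger still at PYL5 (835.5 and 569) and SnRK2.4 (784.5 and 499), and smaller at ABF4, NCED9 and PLL5. Steps over all shared peaks were not calculated.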
